A study of Arabidopsis thaliana with 18 samples.

Results

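The 10 genes described here encode enzymes of carbon fixation in Arabidopsis thaliana. They are the Rubisco small subunit genes RBCS1A, RBCS1B, RBCS2B and RBCS3B, the Rubisco activase gene RCA, the phosphoribulokinase gene PRK, the glyceraldehyde-3-phosphate dehydrogenase genes GAPA, GAPA2 and GAPB, and the sedoheptulose-bisphosphatase gene SBPASE. They were taken by locus from a table of read counts over 32833 genes, and all 10 were among the 20955 genes with enough reads to be tested. Poly-A RNA was sequenced from hypocotyls, the stem of the seedling below its cotyledons. It came from hy1 sampled at 0 h in darkness, hy1 after 12 h and hy1 after 24 h in light, and from the wild type (WT) at the same 3 times, with 3 libraries in each of the 6 groups. HY1 encodes the haem oxygenase that starts the synthesis of the phytochrome chromophore, and the allele of hy1 is not named in the labels. No group was kept in darkness for 12 h or 24 h, so light cannot be told apart from elapsed time, seedling age or time of day. The sample titles call the WT libraries mock and the hy1 libraries not, and whatever that word stands for cannot be told apart from genotype. The labels do not say that the replicates came from separate cultures, so p-values measure the spread between these libraries, which may be technical.

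Rubisco binds CO2 to ribulose bisphosphate in the chloroplast. Its large subunit is encoded in the plastid and its small subunit by the nuclear RBCS family, and Rubisco activase frees blocked active sites with energy from ATP. The A and B subunits of the chloroplast dehydrogenase then reduce the fixed carbon with NADPH, sedoheptulose-bisphosphatase commits sugar phosphates to the regeneration of the acceptor, and phosphoribulokinase makes ribulose bisphosphate again. Seedlings grown in darkness hold etioplasts in place of green chloroplasts, and nuclear genes of photosynthesis are known for induction by light, in part through phytochrome.

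The 4 small subunit genes are near copies of each other. RBCS1A lies alone on chromosome 1 (chr1:25048158-25049667, minus strand), and RBCS1B (chr5:15383167-15385320), RBCS2B (chr5:15380907-15382071) and RBCS3B (chr5:15376988-15378642) follow each other on the minus strand of chromosome 5. The other genes are RCA (chr2:16570746-16573692, minus strand), PRK (chr1:11532199-11534639, plus), GAPA (chr3:9794862-9797045, plus), GAPA2 (chr1:4392438-4394454, minus), GAPB (chr1:16127353-16129895, plus) and SBPASE (chr3:20709294-20711640, plus). Coordinates are those of the TAIR10 annotation of the count table, which are the same in the RefSeq annotation of TAIR10.1 for all 10 genes, and sequences were read from that genome. The coding sequences of RBCS1B, RBCS2B and RBCS3B were 94.1% to 97.3% identical to each other and 87.7% to 90.1% identical to that of RBCS1A. The second of the 3 coding exons, 135 bases long, is shown for all 4 because it shows how few bases separate the copies. Capitals mark the bases that differ from RBCS1A, 11 in RBCS1B, 12 in RBCS2B and 11 in RBCS3B, and the 3 genes of chromosome 5 differ from each other at 3 or 4 bases.
RBCS1A exon 2, chr1:25048838-25048972: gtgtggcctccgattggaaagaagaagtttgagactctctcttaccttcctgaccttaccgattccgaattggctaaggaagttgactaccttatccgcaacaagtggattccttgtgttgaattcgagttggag
RBCS1B exon 2, chr5:15384761-15384895: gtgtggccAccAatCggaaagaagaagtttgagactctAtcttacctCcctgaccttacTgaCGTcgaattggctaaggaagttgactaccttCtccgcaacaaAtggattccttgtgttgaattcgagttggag
RBCS2B exon 2, chr5:15381583-15381717: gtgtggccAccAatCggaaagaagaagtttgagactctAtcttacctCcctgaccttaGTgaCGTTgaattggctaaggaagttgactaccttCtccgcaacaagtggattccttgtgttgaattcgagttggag
RBCS3B exon 2, chr5:15377911-15378045: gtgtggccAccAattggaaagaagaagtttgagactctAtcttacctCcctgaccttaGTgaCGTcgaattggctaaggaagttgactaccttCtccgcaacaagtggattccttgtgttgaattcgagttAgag
Of the stretches of 50 bases within exons, 88.0% in RBCS1B, 83.1% in RBCS2B and 83.5% in RBCS3B occurred once in the genome, against 100% in each of the other 7 genes. Of stretches of 100 bases, 91.8% in RBCS1B, 100% in RBCS2B and 88.2% in RBCS3B did so. Reads that fitted several places were not counted, so the levels of RBCS1B, RBCS2B and RBCS3B are uncertain where they share sequence, and those of RBCS1A rest on sequence of its own.

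Motifs known from light-responsive promoters were looked for on both strands, namely the G-box CACGTG, the I-box GATAAG and, for the circadian clock, the evening element AAAATATCT. In the window from 250 bases before to 50 after the annotated start, the G-box was found in RBCS2B and PRK (7.68% of 27443 promoters), the I-box in RBCS1B, RBCS2B, RCA and GAPB (14.6%), and the evening element in none of the 10 (2.81%). The windows of RBCS1B and RBCS2B are shown because these neighbours, close in coding sequence, differ in them. Capitals mark GATAAG, its reverse complement CTTATC and CACGTG, and the matches in RBCS1B overlap each other by 1 base.
RBCS1B, chr5:15385271-15385570, minus strand: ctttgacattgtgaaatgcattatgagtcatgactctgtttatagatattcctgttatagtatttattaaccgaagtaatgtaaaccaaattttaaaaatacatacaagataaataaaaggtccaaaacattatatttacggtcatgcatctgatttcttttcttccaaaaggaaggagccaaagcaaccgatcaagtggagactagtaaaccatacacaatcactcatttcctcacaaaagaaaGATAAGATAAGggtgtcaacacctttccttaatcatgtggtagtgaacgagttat
RBCS2B, chr5:15382022-15382321, minus strand: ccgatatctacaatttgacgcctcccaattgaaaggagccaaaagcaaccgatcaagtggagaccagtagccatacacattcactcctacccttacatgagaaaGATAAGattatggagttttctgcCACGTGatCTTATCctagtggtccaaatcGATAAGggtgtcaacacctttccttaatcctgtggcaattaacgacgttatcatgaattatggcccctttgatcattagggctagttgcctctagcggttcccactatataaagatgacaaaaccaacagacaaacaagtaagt
The annotated starts of several members lie well before their start codons, so the 300 bases before the first start codon were searched as well, a window added after the data were seen. There the G-box was found in RBCS1A, RBCS2B, RBCS3B, RCA and SBPASE (6.28% of genes) and the I-box in RBCS1A, RBCS1B, RBCS2B, RBCS3B, GAPA and GAPB (15.4%), again with no evening element (2.29%). The 30 bases around each of these G-boxes are shown with CACGTG and CTTATC in capitals. Their CACGTG begins 259 bases before the start codon in RBCS1A, 216 in RBCS2B, 217 in RBCS3B, 251 in RCA and 130 in SBPASE.
RBCS1A, chr1:25049491-25049520, minus strand: ggaattatcttcCACGTGgcattattccag
RBCS2B, chr5:15382177-15382206, minus strand: ggagttttctgcCACGTGatCTTATCctag
RBCS3B, chr5:15378506-15378535, minus strand: ggagttttctgcCACGTGgcCTTATCctag
RCA, chr2:16573579-16573608, minus strand: ataaacatattcCACGTGgaccaatcaaaa
SBPASE, chr3:20709498-20709527, plus strand: ttcagttactgcCACGTGtcactctgaccg
A match is a run of letters and no evidence of binding, and no value was tested against it.

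The libraries held 38469946 to 59905064 counts each. HY1 RNA was present in every library, with 18.4 to 36.3 CPM (read counts scaled to library size) in hy1 and 23.4 to 47.9 CPM in WT. It was lower in hy1 at 0 h, by 0.39 ± 0.13 on the log2 scale (edgeR, adjusted p = 0.0411), and at 24 h, by 1.05 ± 0.13 (edgeR, adjusted p = 6.63e-05). The 0 h call held in 17 of 26 alternatives and was lost when any 1 of the 6 libraries at 0 h, or hy1 24 h replicate 1 or 3, was left out (edgeR, adjusted p = 0.053 to 0.12, in a range of 0.0012 to 0.12). Among the WT libraries, 3 stood apart by these data, with no batch named in the labels, namely replicates 2 and 3 of 12 h and replicate 3 of 24 h. They correlated with the other libraries of their groups at 0.948 to 0.971, against 0.978 to 0.991 for all other pairs within groups. The pair of WT 12 h replicates 2 and 3 is among those other pairs. By correlation within WT at 12 h, replicate 1 is therefore the one that differs from the other replicates. Genes with over 400 and up to 800 exon bases took 1.36% to 1.83% of the counts of the 3 libraries, against 1.93% to 2.86% elsewhere. The hypocotyl has no defining marker list here, and markers of cotyledons and leaves, of the stomatal lineage, of roots and of the shoot meristem were detected in every group, and those of seed reserves did not pass 0.62 CPM in sum. The 4 cotyledon and leaf markers FIL, YAB2, YAB3 and YAB5, none of them at 0 in all libraries, summed to 5.41 to 6.75 CPM in hy1 at 0 h, 21.2 to 43.6 CPM at 12 h and 8.48 to 17.5 CPM at 24 h. In WT they summed to 13.2 to 19.1 CPM at 0 h, to 8.43, 40.9 and 5.66 CPM in replicates 1, 2 and 3 at 12 h, and to 6.34 to 12.3 CPM at 24 h.

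All 10 genes had a higher estimated level in the light in both genotypes, called for all but RBCS2B in WT at 12 h. Together they took 0.0152% to 0.0256% of the counts in hy1 at 0 h, 0.264% to 0.326% at 12 h and 0.311% to 0.418% at 24 h. In WT they took 0.0240% to 0.0447% at 0 h, 0.155% to 0.414% at 12 h and 0.360% to 0.620% at 24 h. Changes are given as log2 ratios of the first group over the second, ± standard error, from edgeR's quasi-likelihood test with p-values adjusted by Benjamini and Hochberg over all tested genes, with calls made below an adjusted p of 0.05. In hy1 all 10 rose at 12 h, with a median change of 3.94 against 0.0098 over all tested genes, and 22.9% of all tested genes were called higher. All 10 rose in hy1 at 24 h too, with a median of 3.92 against -0.0035 over all tested genes and 20.4% of genes called higher. In WT 9 of 10 rose at 12 h, with a median of 2.96 against 0.010 over all genes and 28.3% called higher, and all 10 rose at 24 h, with a median of 3.71 against 0.024 and 24.6% called higher. Without the 3 libraries that stood apart, which leaves 1 WT library at 12 h and assumes that it varies like the other groups, the WT counts were again 9 and 10. The 12 h and 24 h comparisons of a genotype share its 0 h libraries. In such bulk samples fewer cells of a type and less RNA per cell cannot be told apart. In hy1 the lit libraries all lay above all dark ones for 10 of the 10 genes at both times, and for 32.9% (12 h) and 32.2% (24 h) of all tested genes. In WT they did so for 8 and 10 of the 10, and for 27.2% and 29.2% of all tested genes. In hy1 all 4 cotyledon and leaf markers rose at 12 h and none was called at 24 h, whereas in WT none of the 4 was called at either time. The 5 stomatal lineage markers summed to 1.22 to 2.11 CPM in hy1 at 0 h, 11.8 to 19.3 CPM at 12 h and 4.58 to 9.03 CPM at 24 h, with 2 of 3 tested called higher at both times. In WT they summed to 3.92 to 7.23, 4.18 to 13.7 and 3.36 to 6.62 CPM, with 1 of 3 called higher at 12 h and 0 at 24 h. Of the 3 tested root markers 1 was called lower in hy1 at each time, and in WT 2 were called higher at 12 h and 2 higher and 1 lower at 24 h. STM was called lower in WT at both times, by 1.70 at 12 h and 1.93 at 24 h, and was not called in hy1. Of all tested genes 21.3% and 20.1% were called lower in hy1 at 12 h and 24 h, and 25.3% and 23.1% in WT. The part of these markers in the rise of the 10 genes was not tested.

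**Figure D1:**
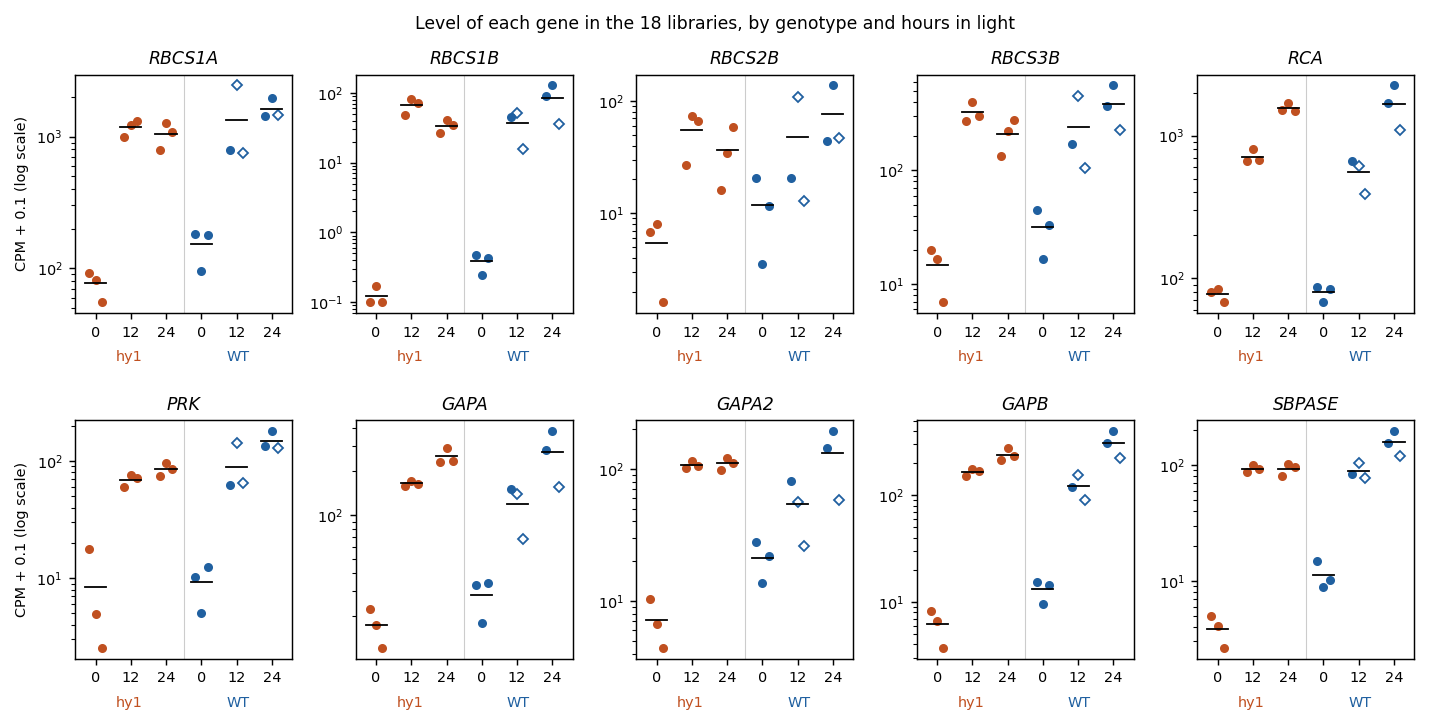
Level of each of the 10 genes in CPM plus 0.1 on a log axis, by genotype and hours in light; points are the 3 libraries of a group, lines their means, and open diamonds the 3 libraries that stood apart. Every hy1 library at 12 h and 24 h lies above every hy1 library at 0 h for all 10 genes, as for 32.9% of all tested genes at 12 h and 32.2% at 24 h. WT 12 h replicate 2 is the highest of its group for every gene but RCA, GAPA and GAPA2.

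RBCS1A (AT1G67090), the most abundant small subunit gene here, had 92.6, 82.1 and 55.3 CPM in the 3 hy1 libraries at 0 h, 992, 1217 and 1310.0 at 12 h, then 792, 1276 and 1084 at 24 h. In WT it had 183, 94.6 and 178 CPM at 0 h, 789.5, 2444 and 744 at 12 h, then 1442, 1959.9 and 1449 at 24 h. In each genotype every lit library was above every dark one, while the 12 h and 24 h libraries overlapped. RBCS1A rose 15.3-fold in hy1 at 12 h, a log2 change of 3.94 ± 0.43 (edgeR, adjusted p = 2.3e-06), and 13.7-fold at 24 h, a change of 3.78 ± 0.43 (edgeR, adjusted p = 3.73e-06). The rise in WT was 8.73-fold at 12 h, a change of 3.13 ± 0.42 (edgeR, adjusted p = 1.41e-05), and 10.7-fold at 24 h, a change of 3.41 ± 0.42 (edgeR, adjusted p = 6.47e-06). Without WT 12 h replicate 2 its WT change at 12 h was 2.33, and without all 3 libraries that stood apart 2.38, both called.

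RBCS1B (AT5G38430) was close to absent in darkness and had the highest ratios of the 10. Its 3 hy1 libraries at 0 h held 0, 3 and 0 reads, which is 0, 0.0687 and 0 CPM, those at 12 h had 48.1, 81.5 and 71.3 CPM, and those at 24 h 26.8, 40.3 and 34.2 CPM. In WT it had 0.381, 0.142 and 0.334 CPM at 0 h, 44.7, 51.7 and 15.9 at 12 h, then 90.3, 129 and 35.6 at 24 h. No lit library overlapped a dark one, and in hy1 all 24 h libraries were below all 12 h libraries. Over the summed counts the ratio in hy1 was 2780 at 12 h against 0 h (95% counting interval 951 to 13500) and 1430 at 24 h against 0 h (490 to 6960), intervals that cover counting error alone. The rise was called in hy1 at 12 h (edgeR, adjusted p = 4.01e-08) and 24 h (edgeR, adjusted p = 1.18e-07). In WT it was 129-fold at 12 h, a log2 change of 7.02 ± 0.63 (edgeR, adjusted p = 2.08e-07), and 293-fold at 24 h, a change of 8.20 ± 0.65 (edgeR, adjusted p = 4.78e-08).

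RBCS2B (AT5G38420), the neighbour of RBCS1B, varied widely between replicates. Its hy1 libraries had 6.72, 7.88 and 1.52 CPM at 0 h, 26.6, 73.1 and 66.7 at 12 h, then 16.0, 34.2 and 59.0 at 24 h. The WT libraries had 20.4, 3.44 and 11.5 CPM at 0 h, 20.5, 109 and 12.6 at 12 h, then 44.1, 137 and 46.5 at 24 h. In WT at 12 h replicate 2, one of the libraries that stood apart, was far above the other replicates, which overlapped the dark libraries. RBCS2B rose in hy1 by 3.37 ± 0.90 (edgeR, adjusted p = 0.00639) at 12 h and by 2.76 ± 0.88 (edgeR, adjusted p = 0.0201) at 24 h. The 24 h call was lost without hy1 0 h replicate 3 (edgeR, adjusted p = 0.077) or hy1 24 h replicate 3 (edgeR, adjusted p = 0.079), in a range of 0.0026 to 0.079 over 26 alternatives. In WT its change of 2.01 ± 0.85 (edgeR, adjusted p = 0.0566) at 12 h missed the threshold, and DESeq2's Wald test gave an adjusted p of 0.041, in a range of 0.025 to 0.63. At 24 h RBCS2B rose in WT by 2.69 ± 0.87 (edgeR, adjusted p = 0.0176), a call lost without WT 0 h replicate 2, WT 0 h replicate 3 or WT 24 h replicate 2 (edgeR, adjusted p = 0.071, 0.057 and 0.085, in a range of 0.0021 to 0.085). The change was 1.95 with WT 24 h replicate 2 left out, and leaving out WT 0 h replicate 1 gave 3.33.

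RBCS3B (AT5G38410) ranked behind RBCS1A among the small subunit genes. It had 20.0, 16.7 and 6.86 CPM in hy1 at 0 h, 272, 397 and 302 at 12 h, then 133, 221 and 279 at 24 h. The WT values were 44.9, 16.4 and 33.1 CPM at 0 h, 169, 452 and 105 at 12 h, then 370.1, 559 and 227 at 24 h. Lit and dark libraries did not overlap in either genotype, and 12 h and 24 h overlapped in both. The log2 change in hy1 was 4.48 ± 0.60 (edgeR, adjusted p = 1.7e-05) at 12 h and 3.86 ± 0.58 (edgeR, adjusted p = 6.42e-05) at 24 h. In WT it was 2.94 ± 0.56 (edgeR, adjusted p = 0.000379) at 12 h, or 2.11 and still called without WT 12 h replicate 2, and 3.61 ± 0.57 (edgeR, adjusted p = 7.9e-05) at 24 h.

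The make-up of the small subunit pool was compared per kb of exon, so that levels of different genes can be set side by side. RBCS1A took 80.2 ± 6.0% of the summed level in hy1 at 0 h, 74.2 ± 3.3% at 12 h and 80.4 ± 4.3% at 24 h (SD, n = 3 each), and in WT 78.4 ± 5.1%, 81.8 ± 3.6% and 77.0 ± 5.9%. RBCS3B followed with group means of 12.9% to 18.4% and RBCS2B with 3.21% to 7.35%. RBCS1B took 0.0142% in hy1 and 0.0950% in WT at 0 h, and 1.74% to 2.80% in the lit groups. A level per kb depends on the annotated exon bases, which were 1268 for RBCS1A, 1894 for RBCS1B, 935 for RBCS2B and 1410 for RBCS3B, with coding sequences of 543 to 561 bases. Exact permutation tests over libraries, stratified and two-sided, gave a difference in the RBCS1A share of -0.85 percentage points for hy1 against WT (p = 0.732, adjusted over 9 tests 0.875). The same exact tests gave -1.29 points for 12 h against 0 h (p = 0.675) and -0.62 points for 24 h against 0 h (p = 0.815), both adjusted to 0.875. These tests average over times or genotypes, and from 0 h to 12 h the mean share fell in hy1 and rose in WT. They cannot tell such opposite shifts from no shift.

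RCA (AT2G39730) encodes the activase that keeps Rubisco working. It had 80.3, 83.9 and 68.1 CPM in hy1 at 0 h, 659, 807 and 673 at 12 h, then 1511, 1683 and 1497 at 24 h. In WT it had 86.2, 68.1 and 84.2 CPM at 0 h, 663, 617 and 388 at 12 h, then 1688, 2247 and 1088 at 24 h. The 3 times formed separate levels in both genotypes, with no library of one time overlapping another. RCA rose 9.21-fold in hy1 at 12 h, by 3.20 ± 0.25 (edgeR, adjusted p = 5.22e-08), and 20.2-fold at 24 h, by 4.34 ± 0.26 (edgeR, adjusted p = 4.16e-09). In WT it rose 6.99-fold at 12 h, by 2.81 ± 0.24 (edgeR, adjusted p = 1.38e-07), and 21.1-fold at 24 h, by 4.40 ± 0.26 (edgeR, adjusted p = 2.25e-09).

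Set against the summed RBCS level per kb within each library, RCA had a log2 ratio of -1.01 ± 0.34 in hy1 at 0 h, -1.88 ± 0.19 at 12 h and -0.45 ± 0.34 at 24 h (SD, n = 3 each). In WT the ratio was -1.96 ± 0.43 at 0 h, -2.08 ± 0.87 at 12 h and -1.10 ± 0.27 at 24 h. RCA was thus below the small subunit sum in every library, and closest to it in hy1 at 24 h. The ratio differed by 0.60 between hy1 and WT over the 3 times, with p = 0.0158 in the exact stratified permutation test and 0.0709 after adjustment over 9 tests. At 24 h against 0 h it differed by 0.71 (p = 0.01, adjusted 0.0709) and at 12 h against 0 h by -0.49 (p = 0.155, adjusted 0.349) in the same exact test. With all libraries none of the 9 tests passed after adjustment. An exact test of 3 libraries against 3 alone cannot go below p = 0.1. Without WT 12 h replicate 1 the difference of this ratio between hy1 and WT passed after adjustment. Its difference at 24 h against 0 h passed without hy1 0 h replicate 3.

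**Figure D2:**
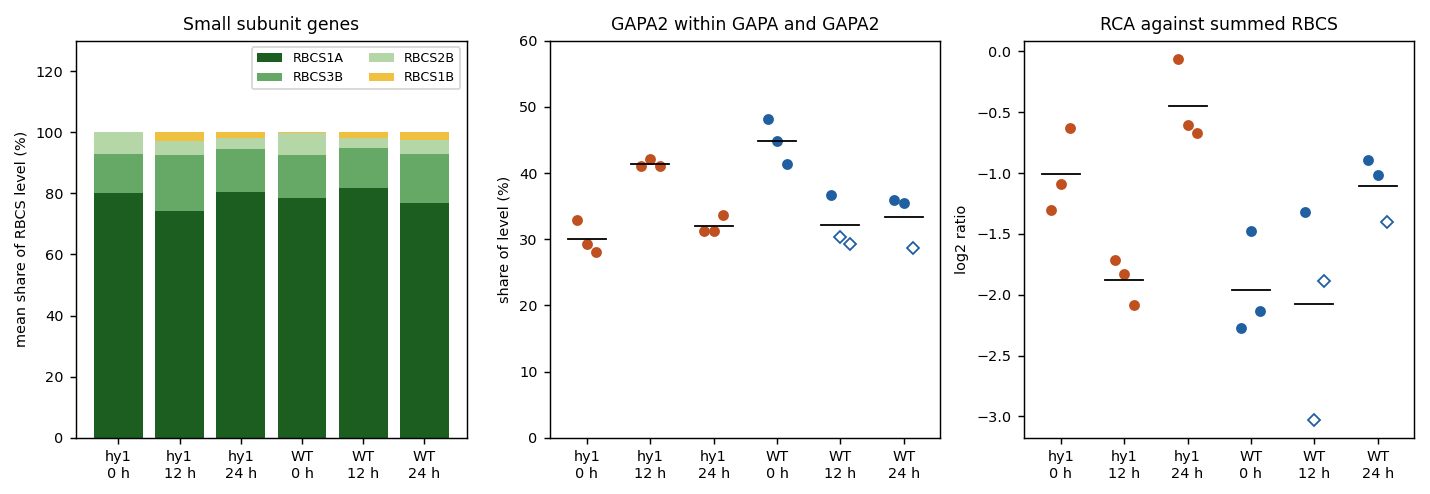
Shares and ratios of the level per kb of exon in the 6 groups. Left, mean share of the 4 RBCS genes in percent; middle, GAPA2 as a share of GAPA plus GAPA2; right, log2 ratio of RCA to the summed RBCS level; points are libraries, lines means of 3, open diamonds the 3 libraries that stood apart. RBCS1A takes 74.2% to 81.8% of the pool in every group, and the GAPA2 share is 30.1% in hy1 and 44.8% in WT at 0 h.

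GAPA (AT3G26650) and GAPA2 (AT1G12900) both encode A subunits of the chloroplast dehydrogenase, and their coding sequences were 76.7% identical. GAPA had 22.5, 17.3 and 12.0 CPM in hy1 at 0 h, 159, 172 and 163 at 12 h, then 233, 289 and 236 at 24 h. In WT it had 32.6, 17.9 and 33.6 CPM at 0 h, 151, 139 and 68.5 at 12 h, then 279.5, 377 and 157 at 24 h. The times were ordered 0 h, 12 h and 24 h without overlap in both genotypes. GAPA rose in hy1 by 3.25 ± 0.36 (edgeR, adjusted p = 2.54e-06) at 12 h and by 3.87 ± 0.37 (edgeR, adjusted p = 6.08e-07) at 24 h. The rise in WT was 2.09 ± 0.34 (edgeR, adjusted p = 0.000111) at 12 h and 3.27 ± 0.36 (edgeR, adjusted p = 1.88e-06) at 24 h.

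GAPA2 had 10.2, 6.57 and 4.31 CPM in hy1 at 0 h, 102, 115 and 105 at 12 h, then 97.8, 121 and 110.3 at 24 h. Its WT libraries had 28.0, 13.5 and 21.8 CPM at 0 h, 80.7, 55.9 and 26.1 at 12 h, then 145, 192 and 58.1 at 24 h. In hy1 the lit libraries were far above the dark ones and level with each other, whereas in WT replicate 3 at 12 h overlapped the dark libraries. GAPA2 rose 15.3-fold in hy1 at 12 h, by 3.93 ± 0.48 (edgeR, adjusted p = 6.24e-06), and 15.6-fold at 24 h, by 3.97 ± 0.48 (edgeR, adjusted p = 6.62e-06). In WT it rose 2.57-fold at 12 h, by 1.36 ± 0.43 (edgeR, adjusted p = 0.0142), and 6.23-fold at 24 h, by 2.64 ± 0.45 (edgeR, adjusted p = 0.000144). The WT call at 12 h was lost without WT 0 h replicate 2 (edgeR, adjusted p = 0.065) or WT 12 h replicate 1 (edgeR, adjusted p = 0.059), in a range of 0.00013 to 0.065. As a share of GAPA plus GAPA2 per kb, GAPA2 took 30.1 ± 2.5%, 41.4 ± 0.6% and 32.0 ± 1.4% in hy1 at 0 h, 12 h and 24 h (SD, n = 3 each), and 44.8 ± 3.5%, 32.1 ± 4.1% and 33.4 ± 4.1% in WT. At 0 h the share was lower in every hy1 library than in any WT library, and at 12 h it was higher. Averaged over times the share differed by -2.27 points between hy1 and WT in the exact stratified permutation test (p = 0.44, adjusted over 9 tests 0.791). It differed by -0.68 points at 12 h (p = 0.875, adjusted 0.875) and by -4.73 points at 24 h (p = 0.125, adjusted 0.349) against 0 h over both genotypes in the same exact test. Against 0 h the mean share was higher in hy1 and lower in WT at both lit times. These averages over times or genotypes set opposite shifts against each other, so the tests cannot tell opposite shifts from no shift.

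GAPB (AT1G42970) encodes the B subunit, whose tail carries the redox switch of the enzyme. It had 8.14, 6.51 and 3.61 CPM in hy1 at 0 h, 151, 178 and 169 at 12 h, then 214, 274 and 234 at 24 h. The WT libraries had 15.2, 9.45 and 14.4 CPM at 0 h, 118, 156 and 89.6 at 12 h, then 307, 398 and 222 at 24 h. As with GAPA, each time stood above the one before it in both genotypes. GAPB rose 27.3-fold in hy1 at 12 h, by 4.77 ± 0.32 (edgeR, adjusted p = 1.42e-08), and 39.6-fold at 24 h, by 5.31 ± 0.33 (edgeR, adjusted p = 6.5e-09). In WT the rise was 9.30-fold at 12 h, 3.22 ± 0.30 (edgeR, adjusted p = 2.98e-07), and 23.6-fold at 24 h, 4.56 ± 0.32 (edgeR, adjusted p = 1.24e-08).

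SBPASE (AT3G55800) encodes an enzyme of the regeneration steps that exists in the chloroplast alone. The gene had 4.85, 3.94 and 2.53 CPM in hy1 at 0 h, 86.4, 99.3 and 92.5 at 12 h, then 81.1, 102 and 95.5 at 24 h. In WT it had 14.8, 8.76 and 10.1 CPM at 0 h, 84.1, 105 and 77.2 at 12 h, then 156, 196 and 119 at 24 h. The hy1 libraries were level between 12 h and 24 h, and in WT all 24 h libraries lay above all 12 h libraries. The log2 change in hy1 was 4.62 ± 0.27 (edgeR, adjusted p = 2.81e-09) at 12 h and 4.62 ± 0.27 (edgeR, adjusted p = 2.95e-09) at 24 h. In WT it was 2.98 ± 0.25 (edgeR, adjusted p = 8.07e-08) at 12 h and 3.81 ± 0.25 (edgeR, adjusted p = 8.34e-09) at 24 h.

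PRK (AT1G32060), whose product makes the acceptor of CO2, had 17.7, 4.86 and 2.44 CPM in hy1 at 0 h, 59.6, 75.5 and 71.6 at 12 h, then 75.0, 95.9 and 84.7 at 24 h. The WT libraries had 10.1, 4.91 and 12.4 CPM at 0 h, 62.4, 141 and 64.4 at 12 h, then 135, 179 and 128 at 24 h. In hy1 at 0 h replicate 1 was well above the other replicates, and in WT at 12 h replicate 2 was. PRK rose in hy1 by 3.05 ± 0.55 (edgeR, adjusted p = 0.000316) at 12 h and by 3.35 ± 0.56 (edgeR, adjusted p = 0.000171) at 24 h, and in WT by 3.28 ± 0.56 (edgeR, adjusted p = 0.000142) at 12 h and 4.01 ± 0.57 (edgeR, adjusted p = 2.91e-05) at 24 h. Without hy1 0 h replicate 1 the changes in hy1 were 4.22 at 12 h and 4.53 at 24 h.

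**Figure D3:**
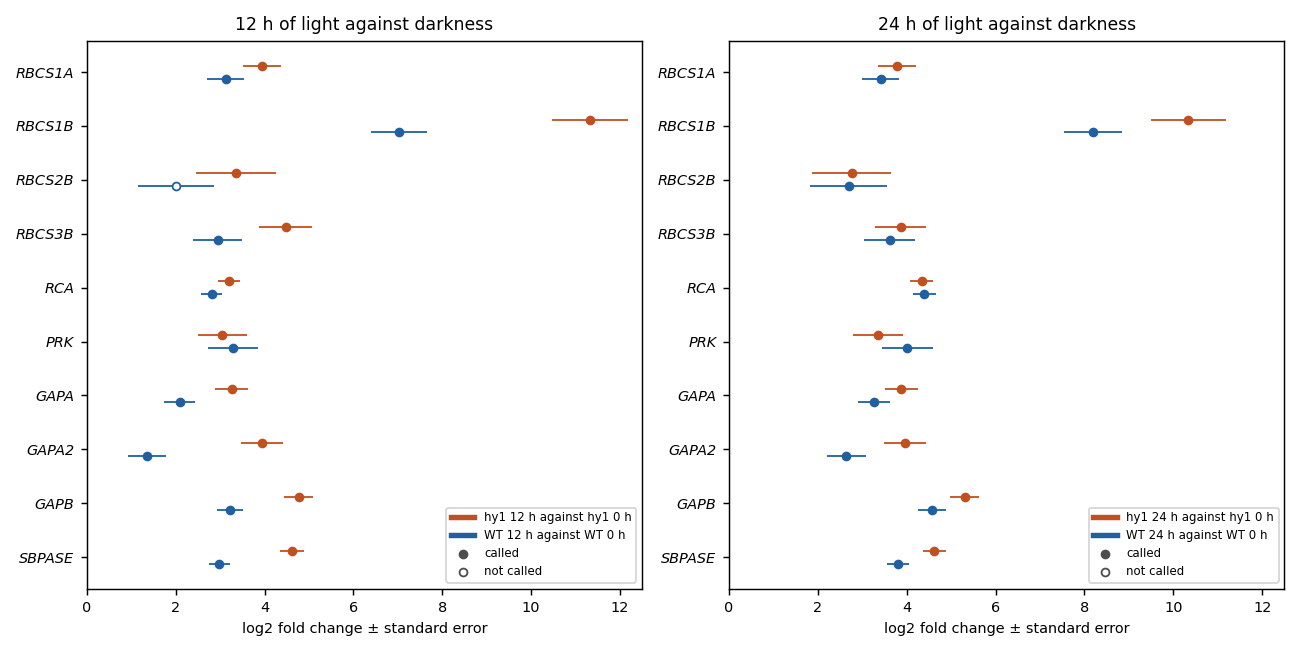
Log2 change of each gene after 12 h (left) and 24 h (right) of light against 0 h in hy1 and WT, as points with standard errors on a linear axis; filled points were called at adjusted p under 0.05 in edgeR and open points were not. Every gene but RBCS2B in WT at 12 h was called, and the points of RBCS1B in hy1 rest on 3 reads at 0 h.

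Per kb of exon the 10 genes spanned a wide range of levels. In hy1 at 24 h RBCS1A averaged 828 ± 192 and RCA 744 ± 49.4 CPM per kb, which overlapped (SD, n = 3 here and below). RBCS3B, GAPA and GAPB followed at 149.5 ± 52.2, 144 ± 18.1 and 129.9 ± 16.6 CPM per kb, within each other's spread. GAPA2, SBPASE, PRK and RBCS2B averaged 67.9 ± 7.23, 53.2 ± 6.18, 45.1 ± 5.54 and 38.9 ± 23.1 CPM per kb, and RBCS1B was last with 17.8 ± 3.58. In WT at 24 h RBCS1A averaged 1275 ± 234 and RCA 797 ± 276 CPM per kb, followed by RBCS3B, GAPB and GAPA at 273 ± 118, 166 ± 47.4 and 155 ± 63.0. SBPASE, GAPA2, RBCS2B and PRK lay between 78.0 and 89.9 CPM per kb, within each other's spread, and RBCS1B was again last with 44.8 ± 24.7. The place of RBCS1B below RBCS2B depends on the annotated exon bases, 1894 against 935, where both coding sequences have 546. In CPM not divided by exon length the 24 h libraries of RBCS1B and RBCS2B overlapped in both genotypes.

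Fewer of the 10 genes were called between 12 h and 24 h than against 0 h. In hy1 RCA alone was called, higher by 1.13 ± 0.23 (edgeR, adjusted p = 0.00787), 1 of 10 genes where 2.35% of all tested genes were called higher. RBCS1B changed by -0.99 ± 0.43 (edgeR, adjusted p = 0.252) and the other 8 by between -0.62 and 0.62, none of them called. In WT 4 of 10 genes were higher at 24 h than at 12 h, with 3.67% of all tested genes called higher. RCA was higher by 1.59 ± 0.23 (edgeR, adjusted p = 0.000486) and GAPB by 1.35 ± 0.28 (edgeR, adjusted p = 0.00635). GAPA was higher by 1.18 ± 0.33 (edgeR, adjusted p = 0.0378) and SBPASE by 0.82 ± 0.23 (edgeR, adjusted p = 0.0338). PRK, with a difference of 0.72 ± 0.51 (edgeR, adjusted p = 0.361), and GAPA2, with 1.28 ± 0.42 (edgeR, adjusted p = 0.0728), did not pass the test. GAPA2 was called with the replicate block (edgeR, adjusted p = 0.046) and with DESeq2 (adjusted p = 0.023). The call was also made without WT 12 h replicate 1 (edgeR, 1.66, adjusted p = 0.0098) or WT 24 h replicate 3 (edgeR, 1.62, adjusted p = 0.0099), in a range of 0.0098 to 0.44. The 4 small subunit genes changed by 0.29 to 1.18 in WT and were not called. RBCS1B was called without WT 12 h replicate 1 (edgeR, 1.31, adjusted p = 0.04) or WT 24 h replicate 3 (edgeR, 1.53, adjusted p = 0.012), and RBCS1A without WT 12 h replicate 2 (edgeR, 1.07, adjusted p = 0.046), in ranges of 0.012 to 0.51 and 0.046 to 1.0. None of the 4 WT calls held with the WT 12 h and 24 h libraries fitted alone (0 of 10 called), and in hy1 4 of 10 were called that way. Over all tested genes the same fits called 111 in WT, against 1902 with all 6 groups in the fit. In hy1 they called 3117, against 1025 with all 6 groups. Without the 3 libraries that stood apart, 4 of 10 were called in WT, with GAPA lost (edgeR, adjusted p = 0.079) and RBCS1B gained (1.29; edgeR, adjusted p = 0.029), and 2 of 10 in hy1, where RBCS1B was lower by 0.99 (edgeR, adjusted p = 0.0038, in a range of 0.0038 to 0.58 over 26 alternatives). Leaving out single libraries left 2 to 6 genes called in WT. The GAPA call was lost without hy1 12 h replicate 2 or hy1 24 h replicate 1 (edgeR, adjusted p = 0.051 each), WT 12 h replicate 2 (0.066) or 3 (0.14), or WT 24 h replicate 1 (0.11) or 2 (0.2), in a range of 0.0066 to 0.33. The SBPASE call was lost without WT 12 h replicate 3 or WT 24 h replicate 1 or 2 (edgeR, adjusted p = 0.13, 0.093 and 0.17, in a range of 0.0084 to 0.22).

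In darkness 3 of the 10 genes had less RNA in hy1 than in WT. SBPASE was 2.98-fold lower in hy1, a log2 change of -1.57 ± 0.24 (edgeR, adjusted p = 0.000287), GAPA2 3.01-fold lower, a change of -1.59 ± 0.44 (edgeR, adjusted p = 0.0156), and GAPB 2.14-fold lower, a change of -1.10 ± 0.29 (edgeR, adjusted p = 0.0107). Of all tested genes 12.4% were called lower in this comparison. For these 3 genes every hy1 library was below every WT library, as were those of RBCS1A and RBCS1B, 5 of 10 genes where 28.6% of all tested genes did so. RBCS1A changed by -0.99 ± 0.39 (edgeR, adjusted p = 0.0772), and RBCS1B held 3 reads in hy1 against 37 in WT, a ratio of WT over hy1 of 12.3 (95% counting interval 3.89 to 62.3), with an edgeR adjusted p of 0.0812. RBCS2B, RBCS3B and GAPA changed by -1.13 ± 0.85, -1.12 ± 0.53 and -0.70 ± 0.34 with adjusted p of 0.369, 0.14 and 0.145 in edgeR. RCA changed by -0.04 ± 0.23 (edgeR, adjusted p = 0.93; 95% interval -0.52 to 0.44) and PRK by -0.14 ± 0.53 (edgeR, adjusted p = 0.887; 95% interval -1.25 to 0.98). The median over the 10 genes was -1.11, against -0.0073 over all tested genes. The GAPA2 call was lost without hy1 0 h replicate 2 or 3 or WT 0 h replicate 1 (edgeR, adjusted p = 0.055, 0.067 and 0.067, in a range of 0.00025 to 0.067), and PRK was lower by 1.32 without hy1 0 h replicate 1 (edgeR, adjusted p = 0.041, in a range of 0.041 to 0.97). DESeq2 called 5 of the 10, and its share over all tested genes is not given here. The 3 libraries that stood apart enter this comparison through the shared estimate of the spread. With them left out edgeR called more genes, both of the 10 and of all tested genes, so that rise is not particular to the 10. The log2 changes of RBCS1A, RBCS3B and GAPA stayed at -0.99, -1.12 and -0.70 in that fit. The summed cotyledon and leaf markers were also lower in hy1 at 0 h, at 5.41 to 6.75 CPM against 13.2 to 19.1 CPM in WT, with 1 of 4 called, and the 5 stomatal lineage markers summed to 1.22 to 2.11 CPM in hy1 and 3.92 to 7.23 CPM in WT, with 1 of 3 tested called. The 6 root markers summed to 149 to 183 CPM in hy1 and 201 to 233 CPM in WT, with 2 of 3 tested called higher in hy1, WOX5 and PLT1. Their part in the difference of the 10 genes was not tested.

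At 12 h no gene of the 10 was called between hy1 and WT, where 32.7% of all tested genes were called in either direction. At an unadjusted p under 0.05 there was 1 gene, and DESeq2 called 0. The share over all tested genes was unstable. The 6853 genes behind it became 4057 to 11090 without 1 library, and fewer with the compared groups fitted alone. GAPA2 had the largest change of the 10, 0.99 ± 0.42 (edgeR, adjusted p = 0.0832; 95% interval 0.09 to 1.88), with all hy1 libraries above all WT libraries, as held for 2 of the 10 and 18.4% of all tested genes. It was called without WT 12 h replicate 1 (edgeR, 1.38, adjusted p = 0.016) or WT 24 h replicate 3 (edgeR, adjusted p = 0.036), in a range of 0.016 to 0.45 over 26 alternatives, and no gene was called without the 3 libraries that stood apart. The small subunit genes changed by -0.18 to 0.84, RCA by 0.36 ± 0.23 (edgeR, adjusted p = 0.231; 95% interval -0.12 to 0.84) and SBPASE by 0.06 ± 0.23 (edgeR, adjusted p = 0.853; 95% interval -0.42 to 0.54). The spread in WT at 12 h was wide, with RBCS1A at 2444 CPM in replicate 2 and at 744 to 790 CPM in the other replicates. That library also held the most cotyledon and leaf marker RNA of its group, 40.9 CPM against 5.66 and 8.43 CPM, and the part of this in its levels was not tested. Without WT 12 h replicate 2 the change of RBCS1A was 0.61 in place of -0.18, and that of PRK 0.11 in place of -0.37, neither called. Of the tested markers at 12 h, none of 4 for cotyledon and leaf was called. Of root markers 1 of 3 was higher and 1 lower in hy1, likewise for the stomatal lineage, and STM was higher in hy1.

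After 24 h 2 of the 10 genes were lower in hy1, RBCS1B 2.51-fold, a log2 change of -1.33 ± 0.44 (edgeR, adjusted p = 0.0418), and SBPASE 1.69-fold, a change of -0.76 ± 0.23 (edgeR, adjusted p = 0.0275), and 10.2% of all tested genes were called lower. All hy1 libraries of SBPASE, RBCS1A and PRK were below all WT libraries, 3 of 10 genes against 20.7% of all tested genes, and those of RBCS1B overlapped WT replicate 3. RBCS1A changed by -0.62 ± 0.39 (edgeR, adjusted p = 0.276; 95% interval -1.44 to 0.20) and PRK by -0.79 ± 0.51 (edgeR, adjusted p = 0.293; 95% interval -1.87 to 0.29). RCA, GAPA, GAPA2 and GAPB changed by between -0.10 and -0.36, with adjusted p of 0.384 to 0.862 in edgeR. Both calls depended on single libraries. RBCS1B was called in 14 of 26 alternatives, and without WT 24 h replicate 2 its change was -0.90 (edgeR, adjusted p = 0.17, in a range of 5.9e-05 to 0.17). SBPASE was called in 21 of 26, and its call was lost without any of the 3 hy1 24 h libraries or WT 24 h replicate 1 or 2 (edgeR, adjusted p = 0.056 to 0.11, in a range of 0.0022 to 0.11). Without the 3 libraries that stood apart 3 of 10 were called, RBCS3B with them (-1.14; edgeR, adjusted p = 0.039, in a range of 0.039 to 0.56). The cotyledon and leaf markers summed to 8.48 to 17.5 CPM in hy1 and 6.34 to 12.3 CPM in WT at 24 h with none of 4 called, and the shoot meristem markers to 15.2 to 19.6 CPM in hy1 and 3.24 to 8.76 CPM in WT, with STM, the 1 tested, higher in hy1. The root markers summed to 51.7 to 64.1 CPM in hy1 and 28.7 to 49.0 CPM in WT, with 2 of 3 tested called higher in hy1. Those of the stomatal lineage summed to 4.58 to 9.03 CPM in hy1 and 3.36 to 6.62 CPM in WT, with 1 of 3 called lower. Their part was not tested.

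The change from 0 h to 12 h was larger in hy1 than in WT for 3 of the 10 genes, as tested by the interaction of genotype and time. GAPA2 differed by 2.57 ± 0.61 (edgeR, adjusted p = 0.013), GAPB by 1.55 ± 0.40 (edgeR, adjusted p = 0.0186) and SBPASE by 1.63 ± 0.33 (edgeR, adjusted p = 0.00533), and 6.73% of all tested genes were called in this direction. For GAPA2 this set a 15.3-fold rise in hy1 against a 2.57-fold rise in WT, and for SBPASE a 24.6-fold rise in hy1 against a 7.91-fold rise in WT. These are the 3 genes that were lower in hy1 at 0 h, and the 0 h libraries enter both comparisons. All 3 were called in each of 26 alternatives, with adjusted p up to 0.035 for GAPA2, 0.048 for GAPB and 0.016 for SBPASE. RBCS1B, with 3 reads in hy1 at 0 h, and GAPA gave 4.31 ± 1.43 (edgeR, adjusted p = 0.0567) and 1.17 ± 0.47 (edgeR, adjusted p = 0.107). RBCS1B was called in 7 of 26 alternatives, with adjusted p of 0.00079 to 0.12 over the 26 from edgeR and DESeq2. DESeq2 gave an adjusted p of 0.00079, edgeR with the replicate block 0.037 and edgeR with the compared groups alone 0.048. It was also called without WT 12 h replicate 1 or WT 24 h replicate 2 or 3 (edgeR, adjusted p = 0.028 to 0.047). RBCS3B, RBCS2B, RBCS1A, RCA and PRK gave 1.54 ± 0.74, 1.36 ± 1.17, 0.81 ± 0.54, 0.40 ± 0.32 and -0.24 ± 0.73, with adjusted p of 0.167 to 0.839 in edgeR. The remaining alternative in which RBCS1B was called left out the 3 libraries that stood apart, which leaves 1 WT library at 12 h. In that fit RBCS1A gave 1.56. Without WT 12 h replicate 2 alone RBCS1A gave 1.60 and RBCS3B 2.37 (edgeR, adjusted p = 0.016 and 0.034, in ranges of 0.016 to 0.55 and 0.034 to 0.32). Of the cotyledon and leaf markers 1 of 4 was called in the same direction and of the tested stomatal markers 1 of 3, as was the meristem gene STM, while 1 of 3 tested root markers was called in the opposite one. Their part was not tested.

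The change from 0 h to 24 h did not pass the interaction test for any of the 10 genes, where 8.67% of all tested genes were called in either direction. In edgeR 2 of the 10 had an unadjusted p under 0.05, and DESeq2 called 0. GAPA2 gave 1.33 ± 0.60 (edgeR, adjusted p = 0.216; 95% interval 0.05 to 2.61), SBPASE 0.82 ± 0.33 (edgeR, adjusted p = 0.16; 95% interval 0.11 to 1.52) and RCA -0.06 ± 0.32 (edgeR, adjusted p = 0.943; 95% interval -0.74 to 0.62). The change from 12 h to 24 h differed between genotypes for 0 of 10 in edgeR, with 0.539% of all tested genes called, 2 of the 10 at an unadjusted p under 0.05 and 1 called by DESeq2. All 10 values were below 0, from -2.17 for RBCS1B to -0.42 for PRK, with a median of -0.81 against -0.020 over all tested genes. The share of all tested genes below 0 is not given. The 10 genes ran together over the same libraries, so their shared sign is not 10 separate results. RBCS1B was called without the 3 libraries that stood apart, at -2.28 (edgeR, adjusted p = 0.0089, in a range of 0.0089 to 0.44).

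**Figure D4:**
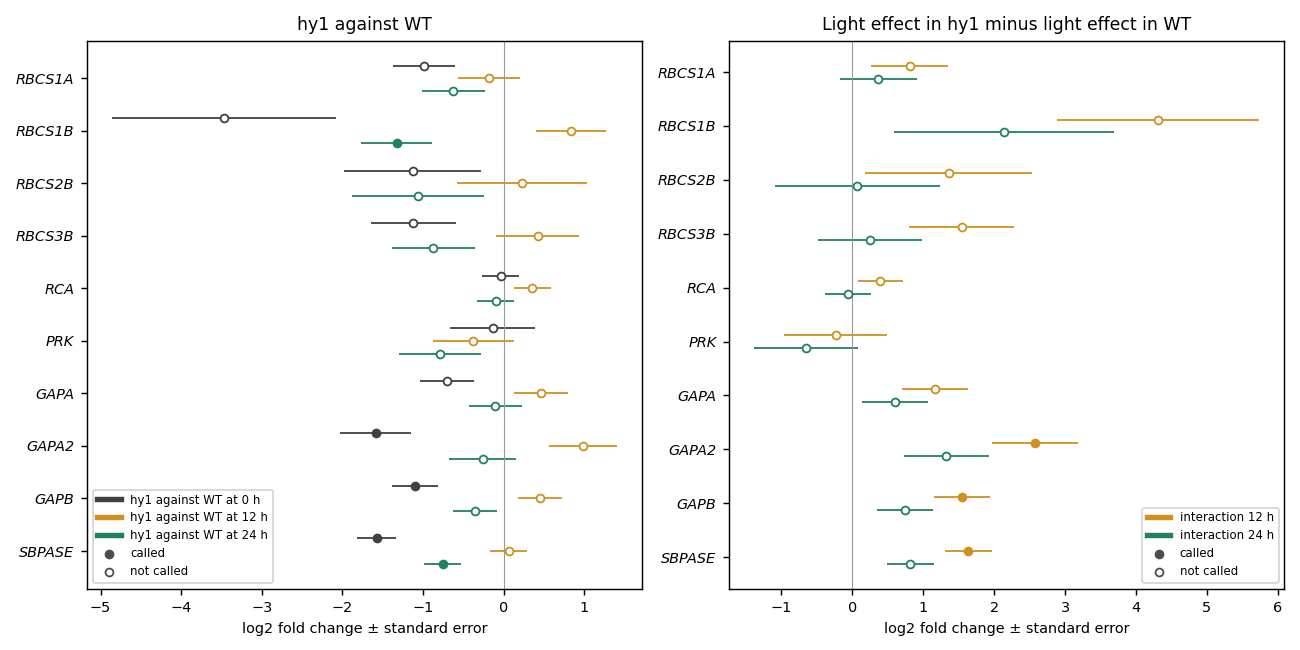
Left, log2 change of hy1 against WT at 0 h, 12 h and 24 h; right, the light effect in hy1 minus that in WT at 12 h and 24 h; points with standard errors on a linear axis, filled where called at adjusted p under 0.05 in edgeR. GAPA2, GAPB and SBPASE are filled below 0 at 0 h on the left and above 0 at 12 h on the right.

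Other genes of the pathway were taken from lists. Their counts between genotypes stand beside the shares of all tested genes. At 0 h 12.2% of all tested genes were called higher and 12.4% lower in hy1. The shares were 14.9% higher and 17.8% lower at 12 h. At 24 h they were 10.5% higher and 10.2% lower. Among 11 other chloroplast enzymes of the cycle, 7 rose and 1 fell in hy1 at 24 h and 9 rose and 0 fell in WT, with medians of 1.07 in hy1 and 1.42 in WT. FBA2 and FBA1, chloroplast aldolases, changed by 5.96 ± 0.46 (edgeR, adjusted p = 6.14e-08) and 5.48 ± 0.52 (edgeR, adjusted p = 5.99e-07) in hy1 and by 4.98 ± 0.44 (edgeR, adjusted p = 1.56e-07) and 4.70 ± 0.49 (edgeR, adjusted p = 1.09e-06) in WT. HCEF1, the chloroplast fructose-bisphosphatase, changed by 4.63 ± 0.39 (edgeR, adjusted p = 1.65e-07) in hy1 and 4.28 ± 0.38 (edgeR, adjusted p = 1.97e-07) in WT. The phosphoglycerate kinase PGK1 changed by 1.86 ± 0.13 (edgeR, adjusted p = 2.97e-08) in hy1 and 2.12 ± 0.13 (edgeR, adjusted p = 4.79e-09) in WT. The gene called lower in hy1 was TKL2, a transketolase named after its values were seen, at -0.38 ± 0.14 (edgeR, adjusted p = 0.0334), against 0.11 ± 0.14 (edgeR, adjusted p = 0.514) in WT. The TKL2 call was lost in 12 of 26 alternatives, 11 of them fits without 1 library (edgeR, adjusted p = 0.051 to 0.16, in a range of 0.0028 to 0.16). FBA1 and FBA2 were lower in hy1 at 0 h, by 1.56 ± 0.48 and 1.36 ± 0.38 (edgeR, adjusted p = 0.0279 and 0.0173), and had a larger change to 12 h in hy1, by 2.44 ± 0.64 and 1.84 ± 0.53 (edgeR, adjusted p = 0.0219 and 0.0329). The 0 h calls of both were lost without hy1 0 h replicate 2 or 3 or WT 0 h replicate 1, and that of FBA2 without WT 0 h replicate 3 (edgeR, adjusted p = 0.054 to 0.1, in a range of 0.001 to 0.1). The interaction call of FBA1 was lost when hy1 0 h replicate 2, hy1 0 h replicate 3 or WT 0 h replicate 1 was left out (edgeR, adjusted p = 0.051 to 0.059, in a range of 0.0012 to 0.059). That of FBA2 was lost in 9 of 26 alternatives (edgeR, adjusted p = 0.06 to 0.086, in a range of 0.0029 to 0.086). In 7 of these 1 library was left out, namely hy1 0 h replicate 2 or 3, hy1 12 h replicate 2 or 3, WT 0 h replicate 1 or 3 or WT 12 h replicate 3. At 12 h 7 of the 11 rose in hy1 and 8 in WT, and between genotypes 1 was higher and 2 lower in hy1 at 0 h, 1 higher and 1 lower at 12 h, and 0 higher and 3 lower at 24 h.

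The small protein CP12 ties the dehydrogenase and phosphoribulokinase into an inactive complex in darkness, and thioredoxins release it in the light. Of 6 such regulators, 5 rose and 0 fell in hy1 at 24 h and 5 rose and 1 fell in WT, with medians of 1.32 in hy1 and 1.57 in WT. Thioredoxin TRXF1 changed by 4.21 ± 0.37 (edgeR, adjusted p = 2.13e-07) in hy1 and 3.15 ± 0.34 (edgeR, adjusted p = 1.78e-06) in WT, and TRXF2 by 1.87 ± 0.17 (edgeR, adjusted p = 3.94e-07) in hy1 and 1.58 ± 0.17 (edgeR, adjusted p = 1.58e-06) in WT. The thioredoxin reductase NTRC changed by 1.18 ± 0.09 (edgeR, adjusted p = 4.95e-08) in hy1 and 1.57 ± 0.09 (edgeR, adjusted p = 1.57e-09) in WT, and CP12-2 by 1.45 ± 0.34 (edgeR, adjusted p = 0.00274) in hy1 and 2.39 ± 0.35 (edgeR, adjusted p = 3.5e-05) in WT. CP12-3 went the other way in WT. It changed by 0.22 ± 0.19 (edgeR, adjusted p = 0.378) in hy1 and -0.66 ± 0.19 (edgeR, adjusted p = 0.0104) in WT, and was higher in hy1 than in WT at 24 h by 1.36 ± 0.19 (edgeR, adjusted p = 0.000201). The WT call was lost with exon-length offsets (edgeR, adjusted p = 0.13) and without WT 24 h replicate 1 or 2 (edgeR, -0.58 and -0.51, adjusted p = 0.051 and 0.056, in a range of 2.6e-05 to 0.13). Between genotypes 1 of the 6 was higher in hy1 at 0 h, 4 at 12 h and 2 at 24 h, and 1 was lower at 24 h.

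Rubisco is folded and assembled with the help of chaperonins and assembly factors. All 11 genes of this list rose at 24 h in both genotypes, with medians of 2.24 in hy1 and 2.56 in WT. CPN60B1, a chaperonin subunit, changed by 2.24 ± 0.17 (edgeR, adjusted p = 5.58e-08) in hy1 and 2.56 ± 0.17 (edgeR, adjusted p = 9.57e-09) in WT. AT5G51110, annotated as a pterin dehydratase family protein, changed by 2.16 ± 0.18 (edgeR, adjusted p = 1.4e-07) in hy1 and 2.50 ± 0.18 (edgeR, adjusted p = 2.2e-08) in WT, and AT3G04550, annotated as similar to a Rubisco accumulation factor, by 2.36 ± 0.27 (edgeR, adjusted p = 3.4e-06) in hy1 and 3.04 ± 0.27 (edgeR, adjusted p = 1.7e-07) in WT. The assembly chaperone gene RBCX1 held 4 reads at 0 h in each genotype and averaged 1.37 ± 0.00976 CPM in hy1 and 2.92 ± 0.631 CPM in WT at 24 h, a rise in both (edgeR, adjusted p = 2.71e-06 in hy1 and 1.69e-07 in WT). RBCX1 was lower in hy1 than in WT at 12 h by 2.23 ± 0.35 (edgeR, adjusted p = 0.000404) and AT3G04550 by 1.24 ± 0.25 (edgeR, adjusted p = 0.00203). The AT3G04550 difference was -0.42 without the 3 libraries that stood apart and lost its call there and with the compared groups alone (edgeR, adjusted p = 0.095 and 0.053, in a range of 2.5e-05 to 0.095). Between genotypes 1 of the 11 was higher and 1 lower in hy1 at 0 h, 2 higher and 3 lower at 12 h, and 0 higher and 5 lower at 24 h.

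The cytosolic counterparts of these enzymes serve glycolysis and sucrose synthesis. Of 9 genes 2 rose and 0 fell in hy1 at 24 h and likewise in WT, with medians of 0.52 in hy1 and 0.41 in WT. CYFBP, the cytosolic fructose-bisphosphatase, changed by 0.19 ± 0.19 (edgeR, adjusted p = 0.467) in hy1 and 0.80 ± 0.19 (edgeR, adjusted p = 0.00301) in WT. FBA5, an aldolase with 5 reads in hy1 and 10 in WT at 0 h, averaged 1.57 ± 0.501 CPM in hy1 and 1.96 ± 2.59 CPM in WT at 24 h (edgeR, adjusted p = 0.00588 in hy1 and 0.00552 in WT). In WT its call was lost without WT 24 h replicate 2 (edgeR, 2.58, adjusted p = 0.068, in a range of 2.2e-05 to 0.068). GAPC1 and GAPC2, the cytosolic dehydrogenase genes, changed by 0.99 ± 0.23 (edgeR, adjusted p = 0.00251) and 0.76 ± 0.30 (edgeR, adjusted p = 0.0556) in hy1 and by 0.41 ± 0.23 (edgeR, adjusted p = 0.149) and 0.68 ± 0.30 (edgeR, adjusted p = 0.0766) in WT. GAPC2 was called in 10 of 26 alternatives in hy1 and in 4 in WT, and GAPC1 in 3 in WT. Each of the WT calls came from a fit without WT 12 h replicate 1 or 2, WT 24 h replicate 3 or the 3 libraries that stood apart (edgeR, adjusted p = 8.5e-07 to 0.046). The plastid-encoded large subunit gene RBCL had 2 to 208 reads per library. Plastid RNA mostly lacks the poly-A tails these libraries select, so RBCL was not read as a level, and its 4.11, 1.15 and 0.645 CPM in hy1 and 1.45, 0.820 and 1.24 CPM in WT at 24 h are given as values alone.

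**Figure D5:**
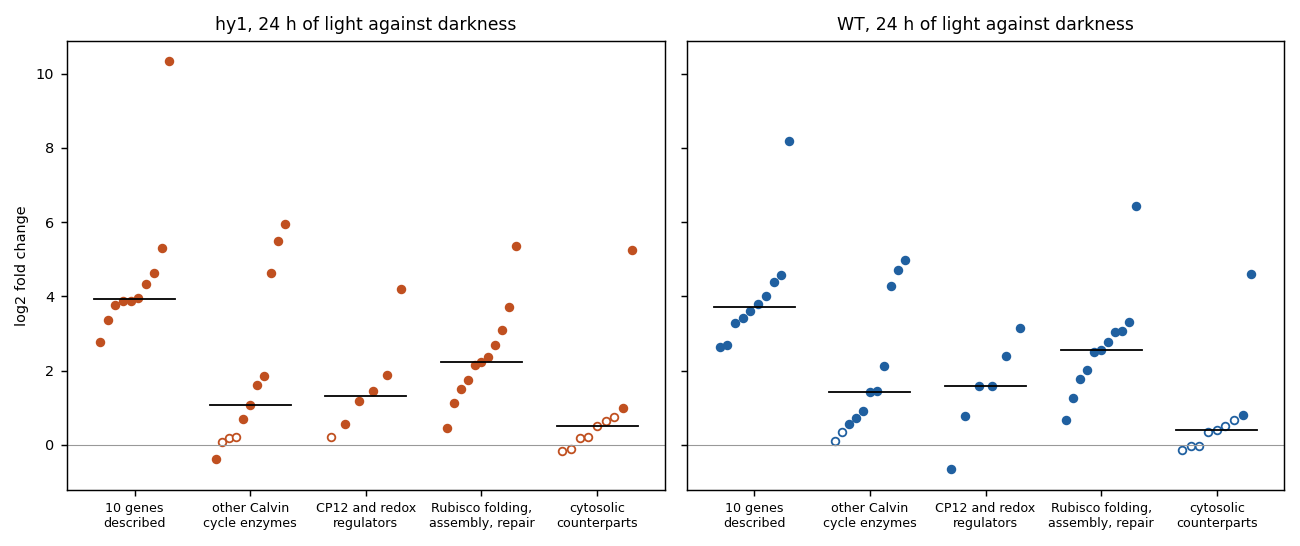
Log2 change after 24 h of light against 0 h in hy1 (left) and WT (right) for the 10 genes and 4 lists of related genes; each point is a gene, filled where called at adjusted p under 0.05 in edgeR, and lines are list medians. The median of the 10 genes is 3.92 in hy1 and 3.71 in WT, and that of the 9 cytosolic counterparts 0.52 in hy1 and 0.41 in WT.

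The 10 genes ran together over the 18 libraries, with Pearson correlations of log2 CPM between pairs from 0.793 (RBCS2B and RCA) to 0.988 (GAPA and GAPB). These correlations span dark and light libraries, and the libraries of a group share their conditions. Of the 15030 other tested genes whose mean reached 5 CPM, those most like the mean of the 10 over the 18 libraries were PnsB1 (AT1G15980, r = 0.992), AT3G48420 (annotated as a HAD hydrolase, r = 0.992), RPL24 (AT5G54600, r = 0.989), DRT112 (AT1G20340, r = 0.989) and AOR (AT1G23740, r = 0.988). AT3G48420 was also on the list of Rubisco assembly and repair. It changed by 3.70 ± 0.32 (edgeR, adjusted p = 2.03e-07) in hy1 and 3.30 ± 0.30 (edgeR, adjusted p = 2.69e-07) in WT at 24 h.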

How the data were processed

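Whole-number read counts per gene were deposited by the authors as 1 table, made with featureCounts 2.0.3 on the TAIR10 annotation, unstranded and with each mate counted, per the file headers. The submitters' processing notes also name STAR 2.7.8a, StringTie 2.1.3 and HTSeq, with no role given. Groups and replicate numbers came from the sample descriptions. Without strand, reads of overlapping antisense genes cannot be told apart.

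The counts were used as deposited in R 4.3.3 with edgeR 4.0.16 (TMM scaling, filterByExpr, 1 quasi-likelihood model with 6 group means, 12 comparisons, two-sided). Genes were called below an adjusted p of 0.05, with Benjamini-Hochberg adjustment over the 20955 tested genes of each comparison. CPM and CPM per kb of exon were computed from the counts. Shares and ratios within libraries were tested by exact stratified permutation with NumPy 2.4.6. The scripts were tested on simulated data. Alternatives were DESeq2 1.42.0, other scalings, no filter, the compared groups alone, exon-length offsets, a replicate block, a fold rule and libraries left out.

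Totals of 38469946 to 59905064 counts per library set the precision, and 6452 of 32833 genes had no read. Same-numbered replicates correlated in their deviations from group means at -0.286 to 0.584 (median 0.0192), so the numbers were not taken to pair samples. All 10 genes are described in every comparison. Of the related lists, the up to 4 genes with the smallest adjusted p in WT at 24 h against 0 h, and any called against most of its list there, are given by value. The 10 genes and the lists were chosen with earlier results of these data known.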

Additional observations from a re-analysis of the deposited data

Results flagged for a closer look

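The change from 0 h to 12 h in light differed between hy1 and WT by an interaction test for 3 of the 10 genes. Of all tested genes 6.73% were called with a higher change in hy1. The rise of GAPA2 was larger in hy1 by 2.57 ± 0.61 (edgeR, adjusted p = 0.013), that of GAPB by 1.55 ± 0.40 (edgeR, adjusted p = 0.0186) and that of SBPASE by 1.63 ± 0.33 (edgeR, adjusted p = 0.00533), all as log2 differences ± standard error. Each of the 3 also had a lower level in hy1 than in WT at 0 h, and the 0 h libraries enter both values. Groups held 3 libraries each, so single libraries were not tested as outliers within a group.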

How the results depend on the processing

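The changes of the 10 genes and the counts over all tested genes were recomputed under 26 alternatives, the shares and ratios under those that applied, and, chosen after seeing the data, 47 values of related genes and HY1 under the same 26. Marker calls and list counts were not. Of the 41 called among the 47, 32 held in every alternative. The rise of the 10 genes in light kept its direction in all 26 alternatives, and GAPA2, GAPB and SBPASE kept the interaction call at 12 h in all 26. Of the 10 genes, the number called moved by more than 1.5 times in these cases, and the cause was not tested. With the compared groups fitted alone, 0 in place of 4 were called for WT 24 h against WT 12 h and 4 in place of 1 for hy1 24 h against hy1 12 h. Leaving out the 3 libraries that stood apart, 2 in place of 1 were called for hy1 24 h against hy1 12 h, 7 in place of 3 for hy1 against WT at 0 h, 5 in place of 3 for the interaction at 12 h and 1 in place of 0 for the interaction between 12 h and 24 h. DESeq2 called 5 in place of 3 for hy1 against WT at 0 h and 1 in place of 0 for the interaction between 12 h and 24 h. A fold of at least 2 as well left 1 in place of 2 for hy1 against WT at 24 h. With the replicate block 1 in place of 0 was called for hy1 against WT at 12 h, GAPA2 at 1.11 (edgeR, adjusted p = 0.037), and in 9 of 18 libraries the closest library by deviation had the same number, which does not pair them. Leaving out 1 library at a time, the number called was 8 to 10 for WT 12 h against WT 0 h, 9 to 10 for WT 24 h against WT 0 h, 9 to 10 for hy1 24 h against hy1 0 h, 2 to 6 for WT 24 h against WT 12 h, 2 to 4 for hy1 against WT at 0 h, 0 to 1 for hy1 against WT at 12 h, 0 to 2 for hy1 against WT at 24 h, 3 to 5 for the interaction at 12 h and 0 to 1 for the interaction between 12 h and 24 h. The following log2 changes of single genes, not called in the direction they turned to, changed sign. With the 3 libraries that stood apart left out, RBCS1A was 0.57 for hy1 against WT at 12 h, PRK was 0.14 for hy1 against WT at 12 h, PRK was 0.29 for the interaction at 12 h, RBCS2B was -0.19 for the interaction at 24 h and RBCS3B was -0.020 for the interaction at 24 h. With exon-length offsets RBCS2B was -0.19 for hy1 against WT at 12 h and RBCS2B was -0.053 for the interaction at 24 h. With upper-quartile factors RCA was 0.014 for the interaction at 24 h. Without 1 library at a time, the change for WT 24 h against WT 0 h ran for TKL2 from -0.010 to 0.22. The change for WT 24 h against WT 12 h ran for RBCS1A from -0.0060 to 1.07 and for RBCS2B from -0.059 to 2.19. The change for hy1 24 h against hy1 12 h ran for RBCS1A from -0.31 to 0.014, for GAPA2 from -0.030 to 0.11 and for SBPASE from -0.056 to 0.098. The change for hy1 against WT at 0 h ran for RCA from -0.15 to 0.042 and for PRK from -1.32 to 0.29. The change for hy1 against WT at 12 h ran for RBCS1A from -0.47 to 0.61, for RBCS2B from -0.23 to 1.74, for PRK from -0.59 to 0.11 and for SBPASE from -0.031 to 0.20. The change for hy1 against WT at 24 h ran for RCA from -0.30 to 0.17, for GAPA from -0.35 to 0.21 and for GAPA2 from -0.59 to 0.11. The change for the interaction at 12 h ran for PRK from -0.67 to 0.94. The change for the interaction at 24 h ran for RBCS2B from -0.56 to 0.80, for RBCS3B from -0.074 to 0.60, for RCA from -0.26 to 0.20 and for PRK from -1.07 to 0.53. Of the shares (in percentage points) and the ratio (log2), the RBCS1A share of the 4 RBCS genes for hy1 against WT ran from -1.99 to 0.20, the RBCS1A share of the 4 RBCS genes for 12 h against 0 h ran from -2.69 to 0.42, the RBCS1A share of the 4 RBCS genes for 24 h against 0 h ran from -2.19 to 1.1, the GAPA2 share of GAPA and GAPA2 for 12 h against 0 h ran from -1.84 to 0.17, the log2 ratio of RCA to the sum of the 4 RBCS genes for hy1 against WT ran from 0.45 to 0.73 and the log2 ratio of RCA to the sum of the 4 RBCS genes for 24 h against 0 h ran from 0.61 to 0.83 without 1 library at a time. The log2 ratio kept its sign in these fits. For hy1 against WT it passed after adjustment without WT 12 h replicate 1, and for 24 h against 0 h without hy1 0 h replicate 3. The RBCS1A share differed, once the 3 libraries that stood apart were left out, by 1.15 points between hy1 and WT, and the GAPA2 share by 1.64 points between 12 h and 0 h. For WT 24 h against WT 12 h 1902 of all tested genes were called, against 2913 with DESeq2, 111 with the groups alone, 964 without the 3 libraries, 935 to 8279 without 1 library. For hy1 24 h against hy1 12 h 1025 of all tested genes were called, against 1693 with DESeq2, 3117 with the groups alone, 3500 without the 3 libraries, 522 to 1493 without 1 library. For hy1 against WT at 0 h 5154 of all tested genes were called, against 9154 with the groups alone, 9750 without the 3 libraries, 3424 to 6519 without 1 library. For hy1 against WT at 12 h 6853 of all tested genes were called, against 1496 with the groups alone, 4085 without the 3 libraries, 4057 to 11090 without 1 library. For hy1 against WT at 24 h 4321 of all tested genes were called, against 7244 without the 3 libraries, 2549 to 5802 without 1 library. For the interaction at 12 h 2835 of all tested genes were called, against 1661 to 8626 without 1 library. For the interaction at 24 h 1816 of all tested genes were called, against 3568 without the 3 libraries. For the interaction between 12 h and 24 h 113 of all tested genes were called, against 396 with DESeq2, 55 with the groups alone, 65 to 1804 without 1 library. Upper-quartile factors moved the median of all genes by 0.105 for the interaction at 12 h, and no other scaling moved a median by over 0.1. Among the 10 genes, depth limits RBCS1B at 0 h in hy1, with 3 reads.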
